A study of Homo sapiens with 20 samples.

Results

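The 10 genes PHGDH, PSAT1, PSPH, SHMT1, SHMT2, MTHFD1, MTHFD1L, MTHFD2, ALDH1L2 and ASNS encode enzymes that make serine and asparagine or that pass carbon units from serine through folate. They were chosen by name from this pathway, and each of the 10 symbols matched 1 Ensembl gene among the 58787 in the count table. The cells were IMR-32, an established human neuroblastoma line labelled wild type, kept as adherent cultures and treated for 24 h in 5 groups of 4 libraries. The groups were Dyngo-4a at 2.26 µM (the high dose), Dyngo-4a at 1 µM (the low dose), prexasertib at 2 nM, prexasertib with Dyngo-4a (the combination) and the vehicle DMSO. The sample titles label the high dose IC50 and do not say of what effect. Dynamins, the GTPases that pinch off endocytic vesicles, are the known target of Dyngo-4a, and prexasertib inhibits CHK1, a kinase of the replication checkpoint. For the combination neither dose was given in the sources used here, and the labels do not say whether libraries of 1 group are separate cultures, so p-values reflect the spread of these libraries, which may be technical.

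Serine is made from the glycolytic intermediate 3-phosphoglycerate by PHGDH, PSAT1 and PSPH in turn. SHMT1 in the cytosol and SHMT2 in mitochondria split serine into glycine and a carbon unit carried by tetrahydrofolate. MTHFD2, MTHFD1L and ALDH1L2 act on folate-bound units in mitochondria and MTHFD1 in the cytosol. The pathway supplies carbon units for the synthesis of purines and thymidylate. ASNS makes asparagine from aspartate and glutamine. Many of these genes are textbook targets of ATF4, the transcription factor of the amino acid and integrated stress responses, and proliferating tumour cells are known to rely on the pathway.

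The libraries were prepared from the 3′ ends of transcripts and held 3960885 to 6537843 counts. Levels are in CPM, the usual count scaled by library total, with TMM factors, and the count filter left 13729 genes to test, all 10 enzymes among them. Log2 fold changes carry standard errors, adjusted p-values come from the quasi-likelihood test of edgeR, adjusted over all tested genes by Benjamini and Hochberg, and a gene is called where that value is below 0.05. High-dose libraries (-41.9 to -32.7 on the first principal component) lay apart from all others (-3.4 to 17.5), the combination libraries lay apart on the third, and the second separated replicates 1 and 3 from replicates 2 and 4 in every group. Of 12 markers of adrenergic neuroblasts none was at 0, although TH, which encodes tyrosine hydroxylase, reached at most 18 counts. The nuclear RNA MALAT1 took 2.80% to 3.15% of the counts in the high dose and 1.74% to 2.92% in the combination, against 0.941% to 1.76% in DMSO. The summed level of 8 mesenchymal markers was 542 to 621 CPM in the high dose, 488 to 527 CPM in the combination and 384 to 470 CPM in DMSO, with PRRX1 at 0 in all libraries. VIM carried this sum, with 536.7 CPM on average in the high dose and 375.6 CPM in DMSO, while COL1A1 averaged 18.8 CPM in the high dose and 32.1 CPM in DMSO, and FN1 2.73 CPM in the high dose and 3.64 CPM in DMSO. Of the adrenergic markers HAND1 averaged 91.9 CPM in the high dose and 173 CPM in DMSO, and HAND2 526.9 CPM in the high dose and 777 CPM in DMSO. Their part in the results was not tested, and in bulk RNA a change within cells and a change in the make-up of the culture cannot be told apart.

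The first comparison, of the high dose with DMSO, addressed the effect of Dyngo-4a as a single agent at 2.26 µM. Of the 10 enzymes 7 rose, 1 fell and 2 were not called, while 25.2% of all tested genes were called, 12.5% higher and 12.7% lower. ASNS rose 8.60-fold, the 3 enzymes of serine synthesis rose 1.70-fold to 2.09-fold, and the mitochondrial SHMT2, MTHFD2 and ALDH1L2 rose 1.40-fold to 1.51-fold. The cytosolic MTHFD1 fell to 0.769 of its DMSO level. The median log2 fold change was 0.59 for the 10 enzymes and 0.004 for all tested genes.

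**Figure D1:**
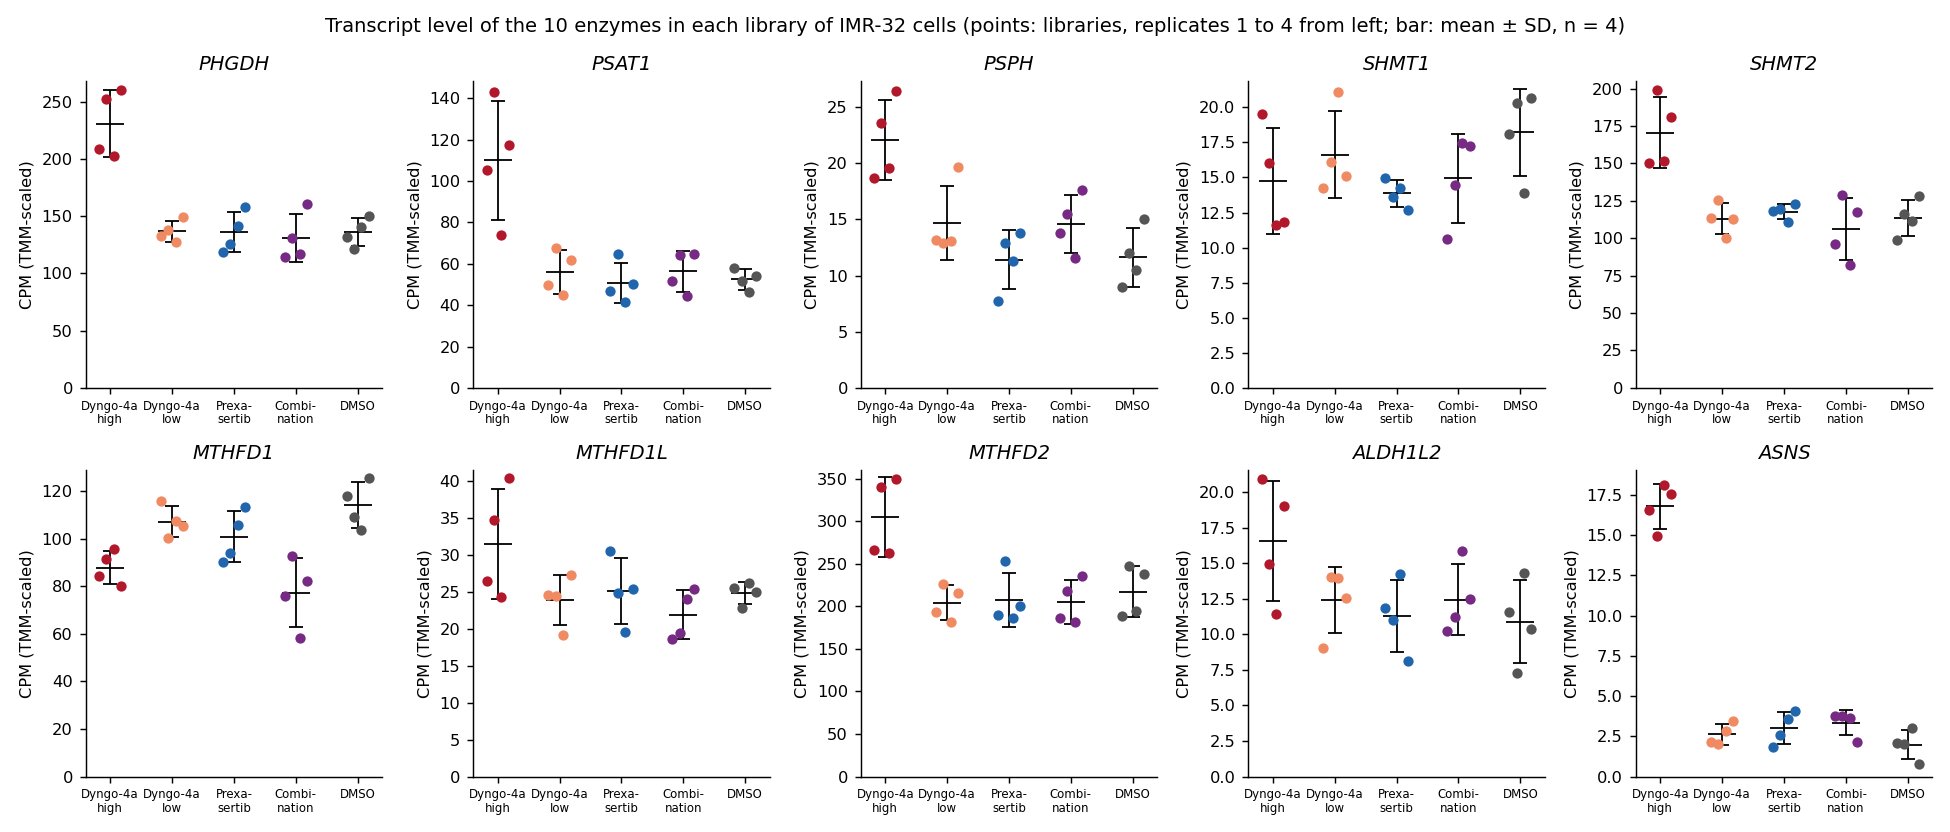
Level of each enzyme in CPM (vertical axis, from 0) in every library of the 5 groups, with points for libraries and bars for the mean and SD of 4 libraries. The high-dose points of PHGDH, PSAT1, PSPH, SHMT2, MTHFD2 and ASNS lie above all DMSO points, and the high-dose and combination points of MTHFD1 lie below all DMSO points.

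PHGDH (ENSG00000092621, chromosome 1, 119648411 to 119744226 in GRCh38) encodes the dehydrogenase that commits 3-phosphoglycerate to serine. It measured 208, 252.5, 203 and 260.3 CPM in the high-dose libraries, against 132, 121, 140.2 and 150.5 CPM in DMSO. Every high-dose library was above every DMSO library. The log2 fold change was 0.76 ± 0.11 (adjusted p = 1.34e-06). In the low dose PHGDH averaged 136.8 ± 9.26 CPM and with prexasertib 136.2 ± 17.4 CPM, against 136.0 ± 12.4 CPM in DMSO (SD, n = 4 each).

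PSAT1 (ENSG00000135069, chromosome 9, 78297143 to 78330093), the aminotransferase of the second step, showed the largest rise of the serine synthesis genes. It measured 105, 143, 74.0 and 118 CPM in the high dose, against 58.0, 51.6, 46.15 and 53.95 CPM in DMSO. The groups did not overlap, but high-dose replicate 3 lay nearest to the DMSO libraries. The log2 fold change was 1.07 ± 0.17 (adjusted p = 5.32e-05), and it was 0.79 in replicates 1 and 3 alone and 1.29 in replicates 2 and 4 alone.

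PSPH (ENSG00000146733, chromosome 7, 56011051 to 56051604) encodes the phosphatase that releases serine. It measured 18.7, 23.6, 19.6 and 26.4 CPM in the high dose, against 8.95, 12.03, 10.5 and 15.05 CPM in DMSO. All high-dose libraries were above all DMSO libraries, with a log2 fold change of 0.92 ± 0.19 (adjusted p = 0.000434). Summed over PHGDH, PSAT1 and PSPH, serine synthesis transcripts reached 363.0 ± 58.4 CPM in the high dose and between 198.5 and 207.4 CPM on average in the low dose, prexasertib, the combination and DMSO.

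ASNS (ENSG00000070669, chromosome 7, 97852118 to 97872542), the asparagine synthetase, showed the largest change of the 10 enzymes. It had 84, 83, 100 and 95 counts in the high-dose libraries, against 11, 8, 15 and 5 counts in DMSO. On the CPM scale these were 16.6, 14.95, 18.1 and 17.5 in the high dose, against 2.09, 2.01, 3.02 and 0.8005 in DMSO. The high-dose libraries were close to one another and far above every library of the other groups, the highest of which, prexasertib replicate 4, had 4.07 CPM. The log2 fold change was 3.10 ± 0.30 (adjusted p = 5.24e-10). ASNSP1, an annotated copy of ASNS, had 46 to 73 counts in the high dose, against 6 to 12 in DMSO, and rose as well (2.48 ± 0.36, adjusted p = 2.31e-06), so reads of the pair may be split between them. With the counts of both added, an analysis chosen after seeing the data, the log2 fold change was 2.84 ± 0.25 (adjusted p = 5e-11).

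The promoter of ASNS is shown because it holds a match to TGATGNAA, a core of the composite element that ATF4 and C/EBP proteins are known to bind. RefSeq promoters (250 bases before a start and 50 after, GRCh38.p14) matched PHGDH, PSAT1, SHMT1, MTHFD1, MTHFD1L, MTHFD2 and ASNS by symbol, with 4 start sites for MTHFD1L and 2 for ASNS, but not PSPH, SHMT2 and ALDH1L2. The letters TGATGNAA were searched on both strands and occur in 3.62% of the 35116 RefSeq promoters of this length. In 1 of the ASNS windows the match spans 68 to 61 bases before a start (chr7:97872359-97872658, minus strand). The same search found a match in 3 overlapping windows of MTHFD1L. CACGTG, the E-box letters that MYC-family proteins are known to bind, was also searched, overlaps none of the TGATGNAA matches and occurs in 7.26% of promoters. It was found in MTHFD1, 15 to 10 bases before the start (chr14:64388103-64388402, plus strand), and in the same 3 windows of MTHFD1L, here chr6:150866197-150866496 on the plus strand. PHGDH, PSAT1, SHMT1 and MTHFD2 held neither run of letters in these windows. A match of letters is a description and not a binding site. Capitals mark the matches, and all lines run 5′ to 3′ on the gene's strand.
ASNS: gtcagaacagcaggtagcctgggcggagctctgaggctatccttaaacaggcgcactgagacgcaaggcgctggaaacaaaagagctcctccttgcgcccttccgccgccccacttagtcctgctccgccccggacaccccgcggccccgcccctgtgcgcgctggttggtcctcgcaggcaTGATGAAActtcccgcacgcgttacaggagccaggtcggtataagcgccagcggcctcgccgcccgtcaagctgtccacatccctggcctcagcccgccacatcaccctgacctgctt
MTHFD1: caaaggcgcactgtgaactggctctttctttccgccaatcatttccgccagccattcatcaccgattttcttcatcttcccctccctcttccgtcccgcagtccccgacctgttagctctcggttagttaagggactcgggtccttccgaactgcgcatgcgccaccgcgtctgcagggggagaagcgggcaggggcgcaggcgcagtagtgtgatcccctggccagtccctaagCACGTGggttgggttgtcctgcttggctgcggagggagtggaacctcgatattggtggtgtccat
MTHFD1L: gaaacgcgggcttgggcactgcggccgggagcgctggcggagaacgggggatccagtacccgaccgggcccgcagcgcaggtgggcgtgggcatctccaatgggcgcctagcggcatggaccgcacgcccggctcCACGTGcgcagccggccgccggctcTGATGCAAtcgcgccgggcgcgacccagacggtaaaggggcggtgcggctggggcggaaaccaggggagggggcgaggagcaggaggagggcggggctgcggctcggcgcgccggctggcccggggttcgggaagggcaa

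In mitochondria, SHMT2 (ENSG00000182199, chromosome 12, 57229327 to 57234935), the serine hydroxymethyltransferase, rose in the high dose. It measured 150.3, 199, 152 and 181 CPM in the high dose, against 98.6, 116, 111 and 128 CPM in DMSO. The groups did not overlap, and the log2 fold change was 0.59 ± 0.11 (adjusted p = 0.000158). The 3′ end of SHMT2 overlaps that of NDUFA4L2 on the other strand, which rose as well (3.45 ± 0.46, adjusted p = 4.36e-07), with 21 to 46 counts in the high-dose libraries and 1 to 4 in DMSO. The strand setting of the counting was not given in the sources used here.

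MTHFD2 (ENSG00000065911, chromosome 2, 74198562 to 74217565), the mitochondrial dehydrogenase and cyclohydrolase, rose too. It measured 267, 340.4, 262 and 350.1 CPM in the high dose, against 189, 247, 194 and 238.5 CPM in DMSO. Replicates 2 and 4 were above replicates 1 and 3 in both groups, and the lowest high-dose library was above the highest DMSO library. The log2 fold change was 0.49 ± 0.12 (adjusted p = 0.0017), and it was 0.47 in replicates 1 and 3 alone and 0.50 in replicates 2 and 4 alone.

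ALDH1L2 (ENSG00000136010, chromosome 12, 105019784 to 105084577), the mitochondrial formyltetrahydrofolate dehydrogenase, was called at the edge of the threshold. It measured 20.9, 14.95, 11.4 and 19.0 CPM in the high dose, against 11.6, 7.27, 14.3 and 10.4 CPM in DMSO. These groups overlapped, and the log2 fold change was 0.59 ± 0.21 (adjusted p = 0.0367). The call was lost without high-dose replicate 1 or 4 or without DMSO replicate 1, 2 or 4 (adjusted p up to 0.140). It was also lost in replicates 1 and 3 alone (0.32, adjusted p = 0.479), while in replicates 2 and 4 alone the log2 fold change was 0.90 (adjusted p = 0.0232). ALDH1L2 overlaps the gene NOPCHAP1 on the other strand, which was not called (-0.03, adjusted p = 0.861).

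MTHFD1L (ENSG00000120254, chromosome 6, 150865549 to 151101887), the mitochondrial formyltetrahydrofolate synthetase, was not called. It measured 26.4, 34.8, 24.3 and 40.4 CPM in the high dose, against 25.5, 22.8, 26.2 and 25.0 CPM in DMSO. High-dose replicates 2 and 4 were above all DMSO libraries and replicates 1 and 3 were not. The log2 fold change was 0.34 ± 0.16 (adjusted p = 0.107). It was -0.02 in replicates 1 and 3 alone (adjusted p = 0.967) and 0.64 in replicates 2 and 4 alone (adjusted p = 0.0211), and MTHFD1L was also called without high-dose replicate 3 (adjusted p = 0.0417).

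Neither cytosolic enzyme was called higher. MTHFD1 (ENSG00000100714, chromosome 14, 64388031 to 64463457), which interconverts folate forms in the cytosol, measured 84.2, 91.5, 95.6 and 80.1 CPM in the high dose, against 118, 109, 104 and 126 CPM in DMSO. Every high-dose library was below every DMSO library. Its log2 fold change was -0.38 ± 0.11 (adjusted p = 0.00833), and -0.29 in replicates 1 and 3 alone, where it was not called (adjusted p = 0.106). ZBTB25, which overlaps MTHFD1 on the other strand, was not called (0.40 ± 0.17, adjusted p = 0.0821).

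SHMT1 (ENSG00000176974, chromosome 17, 18327860 to 18363563), the cytosolic hydroxymethyltransferase, measured 19.5, 16.03, 11.6 and 11.8 CPM in the high dose, against 18.1, 20.3, 13.9 and 20.65 CPM in DMSO. The groups overlapped. Its log2 fold change was -0.31 ± 0.18, with a 95% interval of -0.68 to 0.06 (adjusted p = 0.228). SMCR8, which overlaps it on the other strand, was not called (0.29 ± 0.18, adjusted p = 0.262).

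Ratios within a library, which no scaling can move, set mitochondrial against cytosolic enzymes. The log2 ratio of MTHFD2 to MTHFD1 counts was 1.46 to 2.13 in the high dose, 1.23 to 1.64 in the combination and 0.68 to 1.18 in DMSO, so that neither of these treated groups overlapped DMSO. With prexasertib it was 0.81 to 1.43, which overlapped both the combination and DMSO. Between the combination and DMSO MTHFD1 was called lower (-0.56 ± 0.11), while MTHFD2 was not called (-0.08 ± 0.12, adjusted p = 0.761). The log2 ratio of MTHFD1L to MTHFD1 counts was -1.98 to -0.99 in the high dose, -2.25 to -1.28 in the combination and -2.33 to -1.98 in DMSO, so that the combination overlapped DMSO and the high dose touched it. The log2 ratio of SHMT2 to SHMT1 counts was 2.94 to 3.94 in the high dose and 2.45 to 3.0 in DMSO, which overlapped. It was 2.96 to 3.27 with prexasertib, 2.24 to 3.17 in the combination and 2.25 to 2.99 in the low dose, all overlapping DMSO. These are given as a description, because the pairs were formed after the values of the genes were known.

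**Figure D2:**
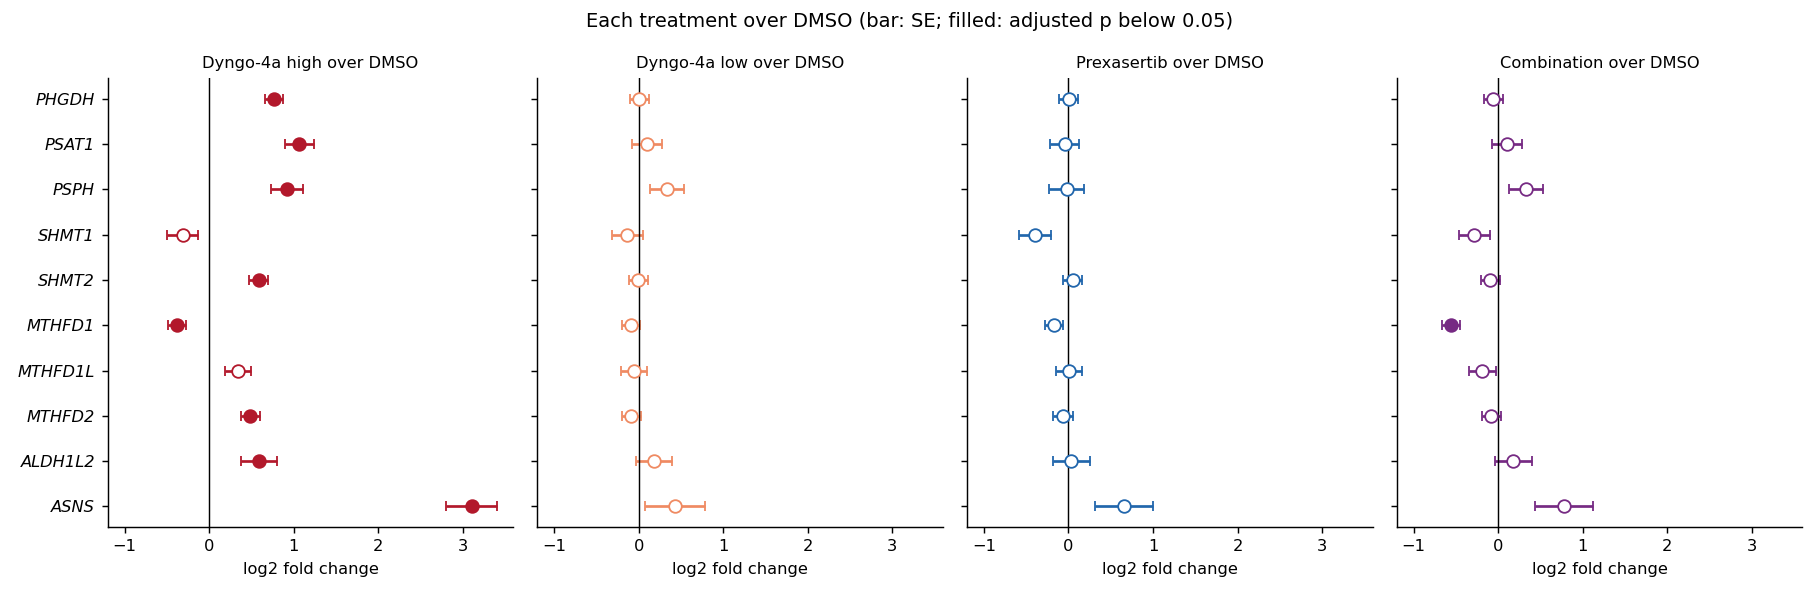
Log2 fold change (horizontal axis) of each enzyme in the 4 treatments over DMSO, with bars for the standard error and filled points for adjusted p below 0.05. Filled points are 8 for the high dose, 0 for the low dose and prexasertib, and 1, MTHFD1, for the combination.

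The low dose and prexasertib alone, each against DMSO, asked what Dyngo-4a does by itself at 1 µM and prexasertib at 2 nM. With edgeR 0 of the 10 enzymes were called in either comparison, while 0.262% of all tested genes were called for the low dose (0.182% higher and 0.0801% lower) and 0% for prexasertib (23 genes with the replicate number as a block, 6 with DESeq2). DESeq2 and limma-voom also called 0 of the 10. At an unadjusted p below 0.05 there were 0 in the low dose and 1 with prexasertib, SHMT1, which measured 14.9, 13.6, 14.3 and 12.7 CPM with prexasertib (-0.40 ± 0.19, adjusted p = 0.9998). All but the lowest of the DMSO libraries were above them. For PHGDH the 95% interval of the log2 fold change ran from -0.21 to 0.23 in the low dose and from -0.22 to 0.22 with prexasertib, and for SHMT2 from -0.24 to 0.22 in the low dose and from -0.18 to 0.28 with prexasertib. The rise that these genes showed in the high dose, 0.76 and 0.59, lies outside these intervals. For ASNS the intervals were wider, -0.28 to 1.15 in the low dose and -0.04 to 1.35 with prexasertib. PSPH averaged 14.7 ± 3.29 CPM in the low dose, against 11.6 ± 2.61 CPM in DMSO (0.33 ± 0.20, adjusted p = 0.756).

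The combination against DMSO asked what both drugs do together. Of the 10 enzymes 1 was called, MTHFD1, which fell, while 6.30% of all tested genes were called, 3.47% higher and 2.83% lower. MTHFD1 measured 75.9, 92.9, 58.3 and 82.3 CPM in the combination, against 118, 109, 104 and 126 CPM in DMSO. All combination libraries lay below all DMSO libraries, with replicate 3 the lowest. The log2 fold change of MTHFD1 was -0.56 ± 0.11 (adjusted p = 0.000699). In replicates 1 and 3 alone it was -0.72 (adjusted p = 0.000102), and in replicates 2 and 4 alone -0.43 and not called (adjusted p = 0.1253).

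The enzymes that rose in the high dose were not called in the combination. ASNS measured 3.77, 3.79, 3.63 and 2.18 CPM in the combination, against 2.09, 2.01, 3.02 and 0.8005 CPM in DMSO, and these groups overlapped. Its log2 fold change was 0.78 ± 0.34 (adjusted p = 0.193), with a 95% interval of 0.08 to 1.47 that excludes the high-dose value of 3.10. PHGDH averaged 130.9 ± 21.2 CPM in the combination and 136.0 ± 12.4 CPM in DMSO (SD, n = 4 each), with an interval of -0.28 to 0.17. The intervals were -0.25 to 0.47 for PSAT1, -0.33 to 0.14 for SHMT2 and -0.32 to 0.16 for MTHFD2, all below the values of these genes in the high dose. For ALDH1L2 the interval in the combination, -0.27 to 0.62, contains its high-dose value of 0.59.

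Treatments were then compared directly. Levels at the high dose were set against those at the low dose. Of the 10 enzymes 6 were higher in the high dose and 0 lower, against 20.2% of all tested genes called, 10.1% higher and 10.1% lower. ASNS was higher by 2.67 ± 0.28 (adjusted p = 1.03e-08), PSAT1 by 0.97 ± 0.17 (adjusted p = 0.000217), PHGDH by 0.76 ± 0.11 (adjusted p = 2.58e-06), SHMT2 by 0.59 ± 0.11 (adjusted p = 0.000193) and MTHFD2 by 0.58 ± 0.12 (adjusted p = 0.000438). PSPH was higher by 0.58 ± 0.19 (adjusted p = 0.0233), a call lost without high-dose replicate 2 or 4 or low-dose replicate 1, 2 or 3 (adjusted p up to 0.0839), and in replicates 1 and 3 or 2 and 4 alone. MTHFD1 measured -0.29 ± 0.11 (adjusted p = 0.0559) and MTHFD1L 0.40 ± 0.16 (adjusted p = 0.0658). With the replicate number as a block both were called, MTHFD1 lower (adjusted p = 0.0153) and MTHFD1L higher (adjusted p = 0.0205). PSPH was called higher with the block as well (0.595, adjusted p = 0.0018).

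**Figure D3:**
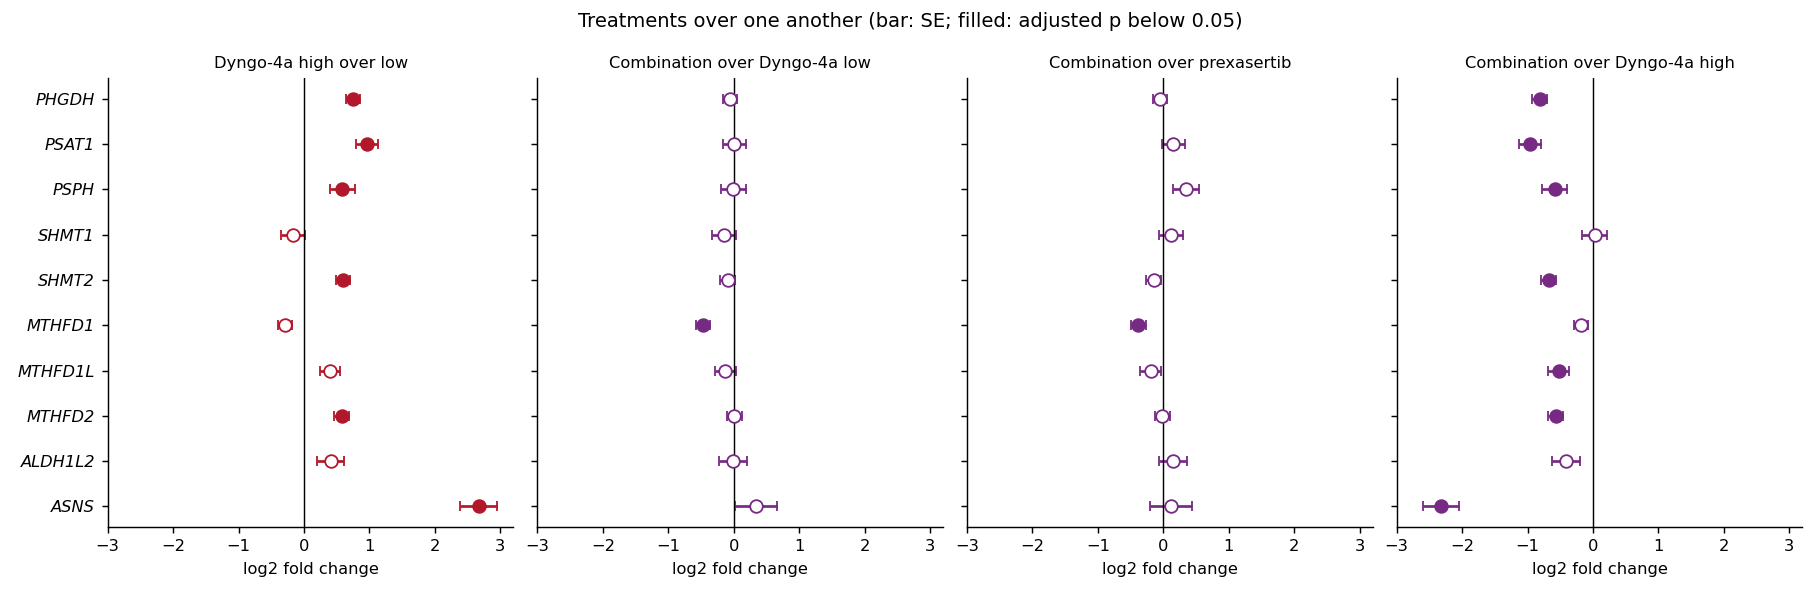
Log2 fold change (horizontal axis) of each enzyme between treatments, with bars for the standard error and filled points for adjusted p below 0.05. Filled points number 6 for the high over the low dose, 1 for the combination over the low dose and over prexasertib, and 7, all negative, for the combination over the high dose.

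The combination against the high dose set the groups with the most called genes side by side. The dose of Dyngo-4a in the combination is not known, so dose and prexasertib cannot be told apart here. Of the 10 enzymes 7 were lower in the combination and 0 higher, against 20.5% of all tested genes called, 10.4% higher and 10.1% lower. ASNS was lower by 2.33 ± 0.28 on the log2 scale (adjusted p = 8.05e-08), and combination libraries had 12 to 22 counts of it, against 83 to 100 in the high dose. PHGDH (-0.82 ± 0.11, adjusted p = 5.87e-07), PSAT1 (-0.96), SHMT2 (-0.68), MTHFD2 (-0.57), PSPH (-0.59) and MTHFD1L (-0.52 ± 0.16, adjusted p = 0.0145) were lower as well. The call of PSPH was lost without high-dose replicate 2 or 4 or combination replicate 1 or 3 (adjusted p up to 0.0866) and in replicates 1 and 3 or 2 and 4 alone, and that of MTHFD1L without high-dose replicate 2 or 4 or combination replicate 1 or 2 (up to 0.0930). In replicates 1 and 3 alone MTHFD1L measured -0.25 and was not called (adjusted p = 0.490). With the replicate number as a block PSPH (-0.594, adjusted p = 0.0019) and MTHFD1L (-0.519, adjusted p = 0.0021) were called lower. MTHFD1 measured 77.4 ± 14.5 CPM in the combination and 87.8 ± 6.98 CPM in the high dose and was not called (-0.18, 95% interval -0.40 to 0.04). In replicates 1 and 3 alone it was called lower (-0.43, adjusted p = 0.0239), and in replicates 2 and 4 alone it measured 0.04 (adjusted p = 0.904).

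The combination was also set against the low dose and against prexasertib, and MTHFD1 was the enzyme called in both. Whether the combination held these same doses is not known, and the interaction assumes that it did. Against the low dose 1 enzyme was lower and 0 higher (3.85% of all tested genes called, 2.70% higher and 1.14% lower), and against prexasertib 1 was lower and 0 higher (3.44% called, 2.40% higher and 1.04% lower). MTHFD1 measured 75.9, 92.9, 58.3 and 82.3 CPM in the combination, against 116, 100.2, 108 and 105 CPM in the low dose and 90.25, 94.1, 106 and 114 CPM with prexasertib. The combination libraries lay below all low-dose libraries, and replicate 2 lay within the range of the prexasertib libraries. MTHFD1 was lower by 0.47 ± 0.11 than in the low dose (adjusted p = 0.00679), a call lost without combination replicate 3 (adjusted p = 0.0725), and by 0.38 ± 0.11 than with prexasertib (adjusted p = 0.0407). The call against prexasertib was lost without prexasertib replicate 2, 3 or 4 or combination replicate 1 or 3 (adjusted p up to 0.217). With the replicate number as a block MTHFD1 was called lower in both, against the low dose (-0.466, adjusted p = 0.00031) and against prexasertib (-0.382, adjusted p = 0.0040). In replicates 1 and 3 alone MTHFD1 measured -0.72 against the low dose (adjusted p = 0.000159) and -0.55 against prexasertib (adjusted p = 0.00731). In replicates 2 and 4 alone it measured -0.235 (adjusted p = 0.637) and -0.25 (adjusted p = 0.563), with neither called. The interaction, which is combination minus prexasertib less low dose minus DMSO, called 0 of the 10 enzymes with edgeR, DESeq2 or limma-voom and had 0 at an unadjusted p below 0.05, with 0.284% of all tested genes called, 0.270% higher and 0.0146% lower. MTHFD1 had the interaction value -0.29 ± 0.15 (adjusted p = 0.792).

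The 5 groups ordered the enzymes in few distinct steps. PHGDH, PSAT1, SHMT2, MTHFD2 and ASNS stood highest in the high dose, and the libraries of the other 4 groups overlapped one another. MTHFD1 ran from 77.4 ± 14.5 CPM in the combination and 87.8 ± 6.98 CPM in the high dose to 101.0 ± 10.8 CPM with prexasertib, 107 ± 6.53 CPM in the low dose and 114 ± 9.75 CPM in DMSO. Each pair of neighbours in this order overlapped in its libraries. SHMT1 ran from 13.9 ± 0.959 CPM with prexasertib to 18.2 ± 3.11 CPM in DMSO and was called in none of the 9 comparisons.

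Correlations of log2 levels between enzymes are given as a description, over 20 libraries that share 5 treatments. Pearson's r was 0.91 for PSAT1 with MTHFD2, 0.90 for SHMT2 with MTHFD2, 0.89 for PHGDH with SHMT2 and 0.81 for PHGDH with ASNS. For deviations from the group means r was 0.77, 0.76, 0.60 and -0.09 for these pairs, so that PHGDH with ASNS had a value near 0 within groups. ALDH1L2 was less correlated with the other enzymes that rose. Its r over the 20 libraries was 0.30 with SHMT2, 0.31 with MTHFD2, 0.34 with PSPH, 0.485 with PSAT1, 0.50 with PHGDH and 0.54 with ASNS. With these genes in turn its r for deviations from the group means was -0.26, -0.19, -0.24, 0.03, 0.09 and 0.05. PSPH with MTHFD1L had 0.41 over the libraries and 0.18 for deviations. The genes outside the 10 with the closest pattern were TARS1 for MTHFD2 (r = 0.95, and 0.81 over the 16 libraries other than the high dose), XBP1 for PHGDH (0.95 and 0.62), KLHL24 for ASNS (0.95 and 0.70), TUBB2B for PSPH (0.94 and 0.89), SLC16A14 for PSAT1 (0.93 and 0.83) and EIF2S2 for SHMT2 (0.91 and 0.65). For MTHFD1 they were KLHL23 (0.88 and 0.87), PTDSS1 (0.86 and 0.86) and FEN1 (0.84 and 0.84). The closest genes reached 0.83 for MTHFD1L (YARS1), 0.79 for ALDH1L2 (SASS6) and 0.70 for SHMT1 (SLCO4A1).

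Genes around the pathway were described through 6 lists, whose counts are to be read against all tested genes, of which 12.5% were higher and 12.7% lower in the high dose and 3.47% higher and 2.83% lower in the combination. Among 13 regulators known for these enzymes 11 were tested, of which 8 rose and 1 fell in the high dose (median log2 fold change 0.95). DDIT3, which encodes the stress factor CHOP, rose by 2.01 ± 0.15, ATF3, a stress-induced factor, by 1.99 ± 0.19, ATF4 by 0.95 ± 0.10 and CEBPB, a partner of ATF4, by 0.97 ± 0.15. The regulator that fell was MYCN (-0.48 ± 0.09), the oncogene known to be amplified in IMR-32. ATF4 averaged 545.9 CPM in the high dose and 291.7 CPM in the combination, against 282.0 CPM in DMSO. In the combination 3 of these regulators rose and 1 fell. ATF3 rose there by 1.91 ± 0.19 (adjusted p = 1.07e-09) and DDIT3 by 0.89 ± 0.15 (adjusted p = 0.000116) and ATF5, a relative of ATF4, by 0.82 ± 0.18, and MYCN fell (-0.44 ± 0.09), while ATF4 measured 0.05 ± 0.10 (adjusted p = 0.848) and CEBPB 0.16 ± 0.16 (adjusted p = 0.612).

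**Figure D4:**
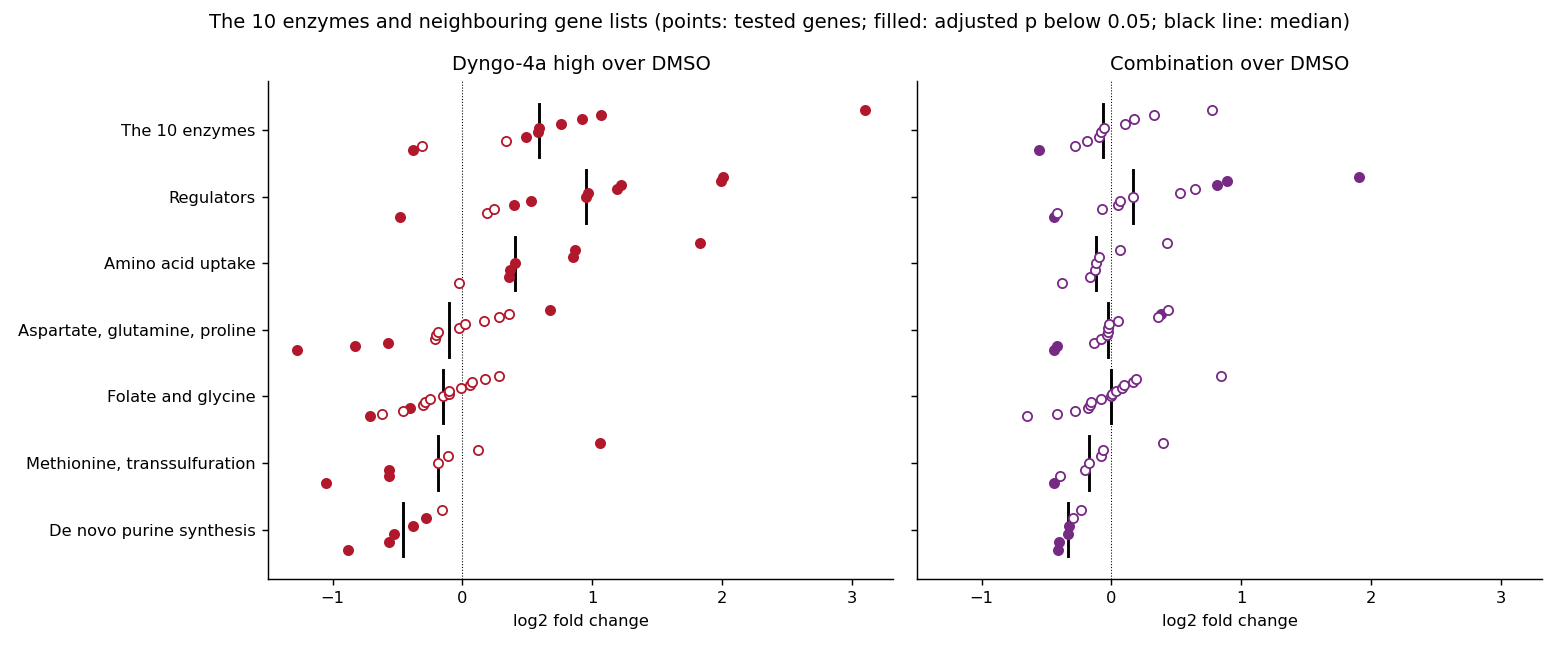
Log2 fold change over DMSO (horizontal axis) of the tested genes of the 10 enzymes and of 6 lists in the high dose (left) and the combination (right), with filled points for adjusted p below 0.05 and a black line at the median. Median values are 0.59 for the 10 enzymes, 0.95 for regulators and -0.46 for purine synthesis in the high dose, and -0.07, 0.16 and -0.33 in the combination.

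Of 7 carriers that bring in these amino acids or their exchange partners 6 rose and 0 fell in the high dose (median 0.40), and 0 were called in the combination (edgeR, 1 at an unadjusted p below 0.05). SLC7A11, the cystine and glutamate exchanger, rose by 1.83 ± 0.16 in the high dose, its partner chain SLC3A2 by 0.87 ± 0.10 and the serine and alanine carrier SLC1A4 by 0.85 ± 0.20. SLC38A2, a carrier of small neutral amino acids, rose by 0.37 ± 0.09.

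De novo purine synthesis uses the carbon units. Of its 6 enzymes 5 fell at the high dose, 4 fell with both drugs together, and 0 rose in either (medians -0.46 and -0.33). PFAS, which acts at the fourth step, fell by 0.88 ± 0.11 in the high dose (adjusted p = 5.13e-08) and by 0.42 ± 0.10 in the combination (adjusted p = 0.00896). PPAT, the enzyme that starts the pathway, fell by 0.56 ± 0.11 in the high dose, PAICS by 0.39 ± 0.09 and ADSL by 0.53 ± 0.13, and ATIC, which ends it, measured -0.28 ± 0.10. Beside PFAS, the genes that fell in the combination were GART (-0.40), ATIC (-0.34) and PAICS (-0.33).

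Of 20 folate and glycine neighbours 15 were tested, and in the high dose 0 rose and 2 fell. Among all tested genes 12.5% were higher and 12.7% lower, so the share that fell was near that of all tested genes. MTHFD2L, a paralog of MTHFD2, fell by 0.71 ± 0.20 (adjusted p = 0.00637). The other 13 genes, with FPGS at -0.30 and the mitochondrial tRNA formyltransferase MTFMT at -0.29, were not called (median of the list -0.15), and 0 were called in the combination (edgeR, 3 at an unadjusted p below 0.05). In the methionine cycle and transsulfuration 7 of 10 genes were tested. CTH, which makes cysteine from cystathionine, rose by 1.06 ± 0.18 in the high dose, while the methionine adenosyltransferase genes MAT2A and MAT2B fell by 1.05 ± 0.15 and 0.57 ± 0.14 and MTRR, which reactivates methionine synthase, by 0.57 ± 0.15. In the combination 1 of the 7, MAT2B, fell (-0.44 ± 0.14, adjusted p = 0.0454).

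Among 12 enzymes of aspartate, glutamine and proline 1 rose and 3 fell in the high dose (median -0.11), a share near the 25.2% of all tested genes called. GPT2, the mitochondrial alanine aminotransferase, rose by 0.68 ± 0.12. PYCR3, a pyrroline carboxylate reductase, fell by 1.28 ± 0.22, ALDH18A1, which starts proline synthesis, by 0.58 ± 0.13 and ASL, the argininosuccinate lyase, by 0.83 ± 0.30. In the combination 1 rose, the aspartate aminotransferase GOT1 (0.38 ± 0.11), and 2 fell, PYCR1 (-0.44 ± 0.11) and ALDH18A1 (-0.42 ± 0.13). With edgeR 0 of the 58 tested genes of the 6 lists were called in the low dose or with prexasertib, and 3 in each comparison had an unadjusted p below 0.05.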

How the data were processed

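The authors deposited 1 table of raw counts per Ensembl gene, not normalised, for 20 libraries. The submitters' processing notes name limma 3.50.3, edgeR 3.36.0, STAR 2.7.2b and FastQC 0.11.7, with GRCh38. Counting program, annotation, strand setting and the treatment of molecular barcodes: not given in the sources used here. Symbols came from a reference table, coordinates from GENCODE 29 and promoters from RefSeq.

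Genes were kept with filterByExpr (minimum count 10, minimum total 15), which left 99.6% to 99.8% of the counts. 1 model of all 20 libraries with 5 group means was fitted in R 4.3.3 by edgeR 4.0.16 (TMM factors 0.968 to 1.03, robust quasi-likelihood F-test, two-sided, 15 residual degrees of freedom, biological coefficient of variation 12.5%), with 9 comparisons. The steps were tested on simulated data. Alternatives used DESeq2 1.42.0, limma-voom (limma 3.58.1), other scalings, filters and subsets. A count of 0 allows 3 counts, 0.459 to 0.757 CPM, for counting error only. The chi-square per degree of freedom between libraries of a group was 3.05 to 8.76, so none was a copy.

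The members, lists and tests were chosen with earlier results of these data known. The 10 members are named throughout, and from each list up to 4 genes with the smallest p in the high dose. The values of 1 list gene that this rule names are not reported here. Genes named beside the combination alone, MYCN, ATIC, the single markers, the genes overlapping a member and ASNSP1 were chosen after their values were seen. Labels do not say that replicate numbers pair libraries, so deviations from group means were correlated between same-numbered libraries, and a block was read as pairing where every correlation was over 0.1. This was so for the low dose (0.144 to 0.237) and prexasertib (0.157 to 0.213) against DMSO and for comparisons between treatments (0.110 to 0.319), not for the high dose or the combination against DMSO (lowest 0.0271 and 0.0274).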

Additional observations from a re-analysis of the deposited data

Results flagged for a closer look

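Among 50 groups of 4 libraries, 10 enzymes in 5 groups, 2 had a library far from the other three, about as many as chance gives at 1 in 20. PSPH measured 19.6 CPM in low-dose replicate 4, against 12.9 to 13.2 CPM in the other low-dose libraries. ASNS measured 2.18 CPM in combination replicate 4, against 3.63 to 3.79 CPM in the other combination libraries.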

How the results depend on the processing

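The count of the 10 enzymes called kept within 1.5 times under every alternative for the high dose against DMSO (8, and 7 to 9 when 1 library was left out), the high against the low dose (6, and 5 to 7), the combination against the high dose (7, and 5 to 7), the low dose, prexasertib and the interaction (0 each, and 0 to 0). For the combination against DMSO it was 1, also when any library was left out (1 to 1), but 0 in replicates 2 and 4 only. Against the low dose it was 1 (0 to 1 when a library was left out) and 0 in replicates 2 and 4 only. Against prexasertib it was 1 (0 to 1) and 0 in replicates 2 and 4 only and with the compared groups alone, where MTHFD1 had adjusted p = 0.0678. These fits hold fewer libraries. Replicates 1 and 3 alone, with as few libraries, kept the MTHFD1 call against DMSO, the low dose and prexasertib (-0.72, -0.72 and -0.55). In replicates 2 and 4 alone the MTHFD1 values were -0.43, -0.235 and -0.25. The cause was not tested. Of 1709 values of single enzymes under the alternatives, 35 lost a call, 10 gained one and 0 called values changed sign. With the replicate number as a block 8 enzymes were called in the high against the low dose, where MTHFD1 had -0.28 and MTHFD1L 0.39. The count did not move with the block in the other 8 comparisons.

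Counts over all genes moved by over 1.5 times in several settings. With the block 260 genes were called in the low dose (36 without it), 1976 in the combination against DMSO (865), 1149 against the low dose (528), 1374 against prexasertib (472), 167 in the interaction (39) and 23 with prexasertib against DMSO (0). With no low-count filter the low dose called 62 and the interaction 65, and DESeq2 called 72 in the interaction. Prexasertib against DMSO called 12 with no low-count filter, 6 with DESeq2, 5 in replicates 1 and 3 alone, 2 with the compared groups alone, and 0 to 2 when 1 library was left out. The low dose called 14 to 22 without 1 of 4 libraries (low-dose replicate 1 or 3, DMSO replicate 2 or 4), and the combination against prexasertib 309 without combination replicate 1. In replicates 1 and 3 or 2 and 4 alone counts were lower: 2230 and 2221 for the high dose (3456), 1457 and 1588 between the doses of Dyngo-4a (2767), 1622 and 1554 for the combination against the high dose (2816). In replicates 2 and 4 alone the low dose called 4, the combination 221 against DMSO, 143 against the low dose and 104 against prexasertib, and the interaction 1. ASNS had 5 to 26 counts in the libraries other than the high dose, which limits the precision of differences among those groups, as the intervals given show.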
